A study of Mus musculus with 16 samples.

Results

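Imprinted growth genes are genes that are read mainly from the copy inherited from one parent and that act on growth, and 10 of them were followed here across genotype and injury state. The members were chosen by symbol as H19, Igf2, Dlk1, Meg3, Peg3, Plagl1, Grb10, Mest, Ndn and Cdkn1c. All 10 were found among the 24411 genes of the count table. They were chosen with earlier results of these data known, so shares of members set beside shares of all genes are a description. The RNA came from muscle stem cells (MuSCs) isolated by fluorescence-activated cell sorting from mouse skeletal muscle, as total RNA depleted of ribosomal RNA. There were 4 libraries in each of 4 groups, namely control mice (wild type in the labels) and TRF2 MuSC-cKO mice (TRF2 knockout in the labels), each from uninjured muscle and from muscle 3 days post-injury (3 DPI) after 10 µl of notexin, a snake toxin that destroys myofibers, was injected into the tibialis anterior. TRF2 is the telomere-binding shelterin protein encoded by Terf2, and in the TRF2 MuSC-cKO mice a floxed Terf2 is removed by a tamoxifen-induced Cre driven from Pax7, so the deletion is limited to cells that use Pax7. Ages were not given in the labels. Several libraries share a code in their labels whose meaning is not stated, so libraries of a group cannot be assumed to be separate mice and p-values measure only the spread between libraries.

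Imprinted genes lie in clusters that are controlled by DNA methylation set in the germ line, and many of them are abundant in the embryo and decline after birth. Adult quiescent stem cells, MuSCs included, are known to keep several of them on. Paternally expressed members such as Igf2 generally favor growth, and maternally expressed members such as Cdkn1c and H19 generally restrain it. Reads were not assigned to a parental copy, so only the summed output of both copies was measured.

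Positions are on GRCm38 (GENCODE M21). H19 (chr7:142575529-142578143, minus strand) and Igf2 (chr7:142650766-142666816, minus strand) form a pair 72622 bases apart. Cdkn1c (chr7:143458339-143461050, minus strand) lies 791522 bases from Igf2 in the neighboring Kcnq1 domain. Dlk1 (chr12:109452823-109463336) and Meg3 (chr12:109541001-109571726), both on the plus strand, form the second pair, 77664 bases apart. Peg3 (chr7:6703892-6730431, minus strand), Ndn (chr7:62346569-62350262, plus strand), Plagl1 (chr10:13060504-13131694, plus strand), Grb10 (chr11:11930508-12038683, minus strand) and Mest (chr6:30723547-30748465, plus strand) lie in domains of their own. Copg2 overlaps Mest and Igf2os overlaps Igf2, both on the opposite strand. Gm44732 overlaps Cdkn1c, Gm26906 overlaps Meg3 and Gm32061 overlaps Ndn, also on the opposite strand, and are not among the counted genes. Since strand use in the counting was not stated, reads in these overlaps are uncertain.

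H19, Igf2, Mest and Meg3 also host microRNAs, and 1 mature 5p sequence per host is shown because all 4 host transcripts were called with injury in control MuSCs. The sequences from RefSeq (GRCm38.p6) follow with the seed, bases 2 to 8, in capitals. The mature microRNAs were not measured in these libraries, and the 4 seeds differ from each other.
miR-675-5p in an exon of H19: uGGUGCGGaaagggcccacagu
miR-483-5p in an intron of Igf2: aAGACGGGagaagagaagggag
miR-335-5p in an intron of Mest: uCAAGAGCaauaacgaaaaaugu
miR-770-5p in an exon of Meg3: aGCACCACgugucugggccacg

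Promoter windows were shown for Meg3, Peg3 and Grb10, the members that were called lower after injury in both genotypes. RefSeq promoter windows (250 bases before to 50 after the start, GRCm38.p6) were matched for 8 of the 10 members, in 15 windows. Several members have more than 1 start, while H19 and Cdkn1c had no matched window. In each line the 250 bases before the start are given 5′ to 3′ on the gene's strand, and capitals mark TTAGGG, the telomere repeat unit that TRF2 binds, or a G-quadruplex pattern (at least 4 runs of GGG with 1 to 7 bases between), on either strand. The GGG of a TTAGGG can also count as a run of the second pattern.
Meg3, first start, plus strand, chr12:109540746-109540995: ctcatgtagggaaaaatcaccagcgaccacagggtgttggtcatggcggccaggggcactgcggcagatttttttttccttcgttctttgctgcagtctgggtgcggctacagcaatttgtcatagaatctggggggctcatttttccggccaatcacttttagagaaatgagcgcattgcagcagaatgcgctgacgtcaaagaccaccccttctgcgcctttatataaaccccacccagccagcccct
Meg3, second start, plus strand, chr12:109545148-109545397: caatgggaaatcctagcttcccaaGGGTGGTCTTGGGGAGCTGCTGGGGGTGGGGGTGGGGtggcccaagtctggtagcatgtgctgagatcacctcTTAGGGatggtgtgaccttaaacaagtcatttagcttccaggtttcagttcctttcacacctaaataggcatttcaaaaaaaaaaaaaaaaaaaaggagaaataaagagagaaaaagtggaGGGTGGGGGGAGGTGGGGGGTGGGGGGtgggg
Peg3, minus strand, chr7:6730420-6730669: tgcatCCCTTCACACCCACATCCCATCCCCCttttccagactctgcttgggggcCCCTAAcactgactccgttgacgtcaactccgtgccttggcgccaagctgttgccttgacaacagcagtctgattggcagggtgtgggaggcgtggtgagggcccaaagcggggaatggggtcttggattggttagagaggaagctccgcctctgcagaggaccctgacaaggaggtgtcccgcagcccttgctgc
Grb10, first start, minus strand, chr11:12037421-12037670: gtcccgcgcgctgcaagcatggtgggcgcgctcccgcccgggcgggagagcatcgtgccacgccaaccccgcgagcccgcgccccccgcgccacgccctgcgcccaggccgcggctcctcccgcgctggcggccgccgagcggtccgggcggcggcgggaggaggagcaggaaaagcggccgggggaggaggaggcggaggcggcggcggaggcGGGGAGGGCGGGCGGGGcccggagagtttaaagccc
Grb10, second start, minus strand, chr11:12027972-12028221: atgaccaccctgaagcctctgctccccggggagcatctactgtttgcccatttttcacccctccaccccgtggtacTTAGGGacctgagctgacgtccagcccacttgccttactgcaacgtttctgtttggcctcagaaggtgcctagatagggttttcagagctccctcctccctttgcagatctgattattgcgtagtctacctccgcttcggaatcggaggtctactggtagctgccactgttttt
Over the whole 300-base windows, TTAGGG was present in 4 of the members' 15 windows, against 10.6% of all 32851 promoter windows. The G-quadruplex pattern was present in 7 of the 15, against 18.6% of all. The E-box CANNTG, the motif of myogenic factors, was present in 8 of the 15, against 72.3% of all. Windows of a gene can overlap, and a match is a description of these letters only.

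Library totals ran from 620506 to 1351130 estimated counts, so that 1 count was worth 0.833 to 1.49 CPM (counts scaled to the library total, with the total adjusted by the trimmed mean of M-values, TMM). TRF2 MuSC-cKO replicate 3 at 3 DPI stood apart, with 15387 genes holding a count against 19996 to 21879 in the other libraries, and calls, fold changes and correlations of the members that it moved are also given without it. In uninjured MuSCs, Terf2 averaged 73.5 ± 12.0 CPM in control libraries against 45.5 ± 13.5 CPM in the knockout (SD, n = 4 each). A two-sided exact permutation test gave p = 0.0286, the lower limit of a design of 4 against 4. This permutation p was 0.0571 with any 1 control library left out and 0.0286 with any 1 knockout library left out. In injured muscle Terf2 was at 43.6 ± 6.74 CPM in control MuSCs. The libraries labelled TRF2 MuSC-cKO held 51.5, 20.7, 62.0 and 84.3 CPM, 3 of the 4 above every control (two-sided exact permutation p = 0.457). Without 1 library this permutation p ran from 0.0286 (TRF2 MuSC-cKO replicate 2 left out) to 0.886 (TRF2 MuSC-cKO replicate 4 left out). The Terf2 count covers the whole gene, including any exons that remain after deletion. At 3 DPI it did not follow the labels, so the libraries there are called by their labels. All 8 MuSC markers were detected in every group, with a median summed level of 4195 CPM in control and 2401 CPM in TRF2 MuSC-cKO uninjured MuSCs and of 926 and 401 CPM at 3 DPI.

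**Figure D1:**
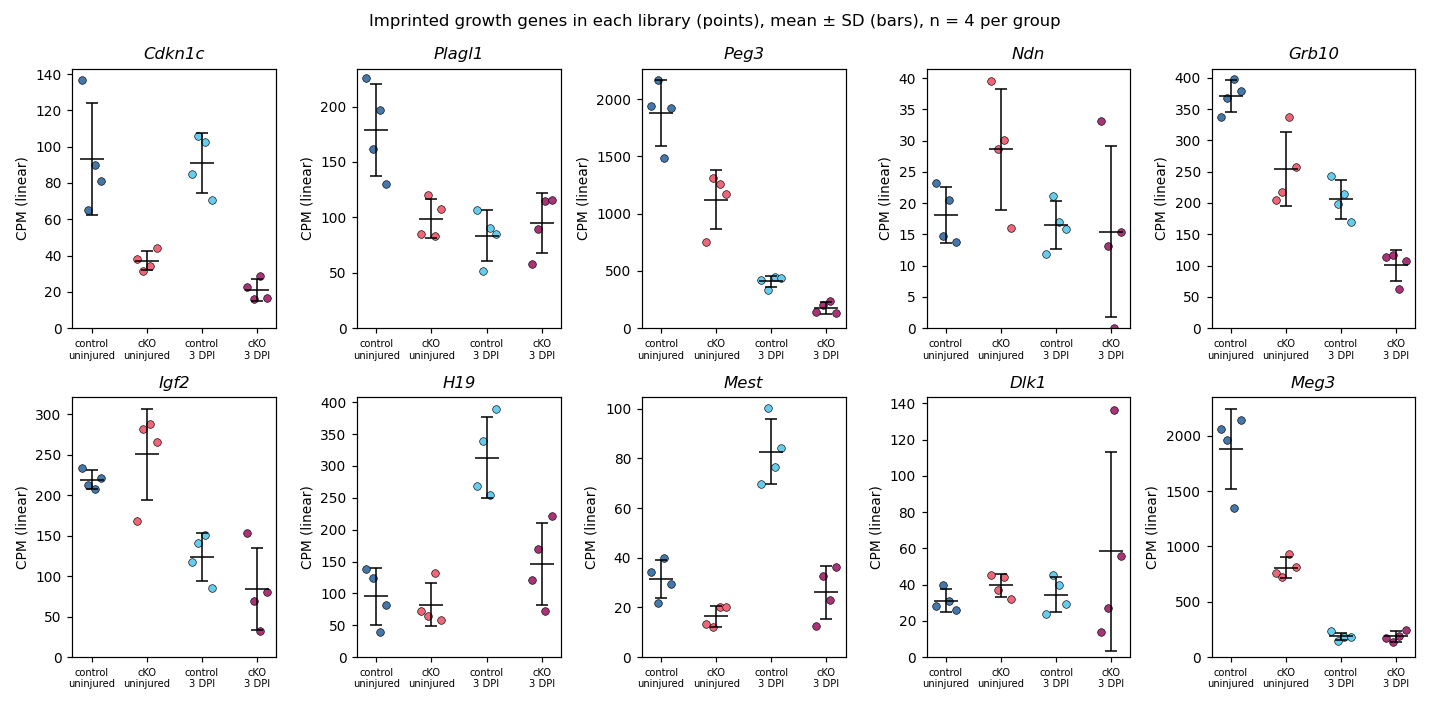
CPM (linear axis) of the 10 imprinted growth genes in each library (points), with the mean and SD (bars) of the 4 libraries per group. Cdkn1c was at 65.2 to 137 CPM in the uninjured control libraries and at 31.8 to 44.2 CPM in the uninjured TRF2 MuSC-cKO libraries, while Meg3 and Peg3 were high in uninjured MuSCs and low at 3 DPI.

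The first comparison asked which members depended on TRF2 in uninjured MuSCs. Calls needed a fold change over 1.5 and an adjusted p under 0.02 in edgeR's quasi-likelihood test, with Benjamini-Hochberg adjustment over all genes tested. Of the 10 members, 2 fell in TRF2 MuSC-cKO MuSCs, Cdkn1c and Meg3, and 0 rose, while the background over 14048 genes was 2.63% lower and 0.584% higher. The count was again 2 with median-of-ratios size factors and with library size alone, 4 with DESeq2, 1 with all 16 libraries in 1 fit and 0 with the abundance-scaled table. The members' median log2 fold change was -0.57, against 0.06 over all genes tested.

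Cdkn1c encodes a cyclin-dependent kinase inhibitor that holds cells out of the cycle. It was at 137, 65.2, 89.8 and 81.3 CPM in control and at 38.3, 31.8, 34.4 and 44.2 CPM in TRF2 MuSC-cKO uninjured MuSCs. All 4 knockout libraries were below all 4 control libraries. The log2 fold change was -1.25 (SE 0.27, edgeR adjusted p = 0.00259). Without control replicate 1, the highest library, it was -1.03 (edgeR adjusted p = 0.0493) and was no longer called. It was also not called with the abundance-scaled table (-1.28, edgeR adjusted p = 0.0464) or with all 16 libraries in 1 fit (-1.37, edgeR adjusted p = 0.0262). Over its 18 alternatives the adjusted p ran from 0.000275 to 0.0493.

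Meg3, a long noncoding RNA that is read from the maternal copy of its domain, was at 2062, 1965, 1352 and 2146 CPM in control and at 759.6, 726, 937 and 815 CPM in TRF2 MuSC-cKO uninjured MuSCs. The groups did not overlap, and Meg3 fell by 1.14 on the log2 scale (SE 0.19, edgeR adjusted p = 0.000121). It was called in each of the 8 fits that left out 1 library, but not with the abundance-scaled table (-1.28, edgeR adjusted p = 0.0345, the highest of its alternatives). Dlk1, the membrane protein encoded at the other end of the same domain, was at 28.4, 40.0, 30.7 and 25.9 CPM in control and at 45.5, 36.9, 44.5 and 32.2 CPM in TRF2 MuSC-cKO. The Dlk1 groups overlapped, with a log2 fold change of 0.42 (SE 0.33, edgeR adjusted p = 0.500).

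A further 4 members did not overlap between the genotypes, all lower in TRF2 MuSC-cKO, without passing the call. Together with Cdkn1c and Meg3 this was 6 of 10 members, while 8.15% of all genes tested had every knockout library below every control library. Since the members were chosen with earlier results of these data known, this contrast is a description. Plagl1, a zinc finger transcription factor, was at 226, 162, 197 and 130.2 CPM in control and at 85.1, 120.0, 83.2 and 107 CPM in TRF2 MuSC-cKO, with a log2 fold change of -0.77 (SE 0.22, edgeR adjusted p = 0.0242). Peg3, a large zinc finger protein, was at 1944, 2166, 1483 and 1924 CPM in control and at 750.0, 1312, 1256 and 1172 CPM in TRF2 MuSC-cKO, with a log2 fold change of -0.67 (SE 0.20, edgeR adjusted p = 0.0353). Both lay outside the threshold. Plagl1 was called in 4 of its 18 alternatives and Peg3 in 5 of 18. For both genes these included DESeq2 and the fit that kept low-count genes. Over these alternatives the adjusted p ran from 0.00910 to 0.146 for Plagl1 and from 0.00334 to 0.163 for Peg3. Mest, a putative hydrolase, was at 21.7 to 39.8 CPM in control and at 12.3 to 20.1 CPM in TRF2 MuSC-cKO, from 11 to 40 counts a library (log2 fold change -0.87, SE 0.40, edgeR adjusted p = 0.224). Grb10, an adaptor that binds the insulin and IGF1 receptors and dampens their signal, was at 338 to 398 CPM in control and at 205 to 337 CPM in TRF2 MuSC-cKO, its groups almost touching (log2 fold change -0.47, SE 0.20, edgeR adjusted p = 0.160).

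The pair Igf2 and H19 did not follow Cdkn1c, which lies on the same chromosome arm. Igf2, a secreted growth factor, was at 208 to 234 CPM in control and at 168 to 288 CPM in TRF2 MuSC-cKO uninjured MuSCs (log2 fold change 0.27, 95% interval -0.12 to 0.66, edgeR adjusted p = 0.464). H19, a noncoding RNA, was at 38.6 to 139 CPM and at 58.9 to 132 CPM (log2 fold change -0.15, 95% interval -0.75 to 0.44, edgeR adjusted p = 0.815). Ndn, which encodes the MAGE family protein necdin, was at 13.9 to 23.3 CPM and at 16.1 to 39.5 CPM (log2 fold change 0.74, 95% interval -0.08 to 1.56, edgeR adjusted p = 0.312). These intervals cover changes in either direction.

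Other genes of the imprinted domains and of the pathway were taken from 4 lists. Over all genes tested, 2.63% were called lower and 0.584% higher in uninjured TRF2 MuSC-cKO MuSCs. Among 23 tested neighbors of the members in their domains, 3 fell and 0 rose. These were Rian (log2 fold change -1.31, edgeR adjusted p = 5.35e-05), a noncoding RNA downstream of Meg3, Nctc1 (-1.27, adjusted p = 0.0156), a noncoding transcript beyond H19, and Nap1l4 (-1.06, adjusted p = 0.0130), a histone chaperone gene in the Cdkn1c domain. Among 24 tested imprinted genes of other domains, Calcr (-1.32), H13 (-0.87) and Gnas (-0.85) fell and Dcn (1.20) rose. Calcr, the calcitonin receptor, is also a MuSC marker, and 5 of the 8 MuSC markers fell in the same comparison while 0 rose. Summed Schwann cell markers were higher in TRF2 MuSC-cKO without overlap (328 to 455 CPM against 217 to 292 CPM in control), with 0 of 4 genes called. Summed immune markers were at 87.5 to 165 CPM against 46.2 to 95.5 CPM, with 0 of 5 tested genes called. Of the smooth muscle and pericyte markers, 1 of 4 was called higher, and 1 of 5 tested fibroadipogenic markers was called lower. The endothelial, tenocyte, myofiber and cycling lists held 0 calls. The part of MuSC content and of these other cells in the members' values was not tested, and in bulk RNA fewer cells of a type and less RNA per cell cannot be told apart. Of 12 tested imprint control genes, such as Dnmt1 and Trim28, 0 were called by edgeR. In this list 3 had an unadjusted p under 0.05, against 19.5% of all genes tested. Of 11 genes of the IGF2 axis and of the cell cycle partners of Cdkn1c, Cdk4 fell (-1.32, adjusted p = 0.00991) and Cdkn1a, the p53-responsive kinase inhibitor related to Cdkn1c, rose (2.37, adjusted p = 3.50e-11). Cdkn1a and Cdkn1c therefore differed in sign between the genotypes.

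The second comparison was the same contrast at 3 DPI, where the libraries labelled TRF2 MuSC-cKO varied more. None of the 10 members was called by edgeR (0% of the 14559 genes tested were called lower). In this comparison 5 members and 1362 of all genes tested had an unadjusted p under 0.05. DESeq2 called 22 genes and limma's robust fit 28, with 0 members among them. The edgeR fit of all 16 libraries called 1 member, Cdkn1c (-2.03, adjusted p = 0.0113), whose adjusted p ran from 0.00273 to 0.939 over 19 alternatives. The members' median log2 fold change was -0.70, against 0.00 over all genes tested.

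Cdkn1c had the largest difference among the members, at 84.7, 106, 103 and 70.8 CPM in control MuSCs and 22.9, 16.4, 28.7 and 16.4 CPM in those labelled TRF2 MuSC-cKO. The groups were far apart, with a log2 fold change of -1.98 (SE 0.35, edgeR adjusted p = 0.418). It ranked 3 among all genes by p. Without TRF2 MuSC-cKO replicate 3, Cdkn1c (-2.21, edgeR adjusted p = 0.00273) and Peg3 (-1.27, edgeR adjusted p = 0.00855) were called, among 16 genes in all.

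Cdkn1c, Mest, Peg3, H19 and Grb10 did not overlap between the genotypes at 3 DPI, all lower in the libraries labelled TRF2 MuSC-cKO. This was 5 of 10 members against 5.75% of all genes tested, again a description given how the members were chosen. Mest was at 69.8, 100.1, 76.6 and 84.1 CPM in control and 12.6, 32.7, 23.0 and 36.1 CPM in those labelled TRF2 MuSC-cKO (log2 fold change -1.54, SE 0.38, edgeR adjusted p = 0.452). Peg3 was at 337 to 444 CPM and at 130.3 to 241 CPM (-1.06, SE 0.26, edgeR adjusted p = 0.452). H19 was at 254 to 389.9 CPM and at 72.3 to 221 CPM (-0.99, SE 0.31, edgeR adjusted p = 0.453). Grb10 was at 169 to 244 CPM and at 63.1 to 117 CPM (-0.93, SE 0.25, edgeR adjusted p = 0.452). These values were not past the threshold. Within the label code that holds 2 libraries of each genotype, the log2 difference was -2.17 for Cdkn1c and -1.92 for Mest. It was -1.12 for Peg3, -1.06 for H19 and -0.91 for Grb10. These libraries are part of the groups above, so their lack of overlap was fixed in advance and is not further support.

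The other 5 members overlapped at 3 DPI. Meg3 was at 148 to 232 CPM in control and 133 to 247 CPM in the libraries labelled TRF2 MuSC-cKO (log2 fold change 0.11, 95% interval -0.44 to 0.67). Igf2 was at 85.0 to 151 and 32.1 to 153 CPM, and Plagl1 at 52.0 to 107 and 58.4 to 116 CPM. Dlk1 was at 137 CPM in replicate 3 and at 13.7 to 55.8 CPM in the other libraries labelled TRF2 MuSC-cKO. Without that replicate, its log2 fold change went from 0.91 to -0.01. Ndn had 0 counts in the same replicate, which allows a level of up to 3.44 CPM (3 counts, counting error only). Summed MuSC markers were lower (321 to 506 CPM) than in control MuSCs (695 to 1040.4 CPM), and so were the cycling markers in 3 of 4 libraries (449 to 691 CPM against 649 to 951 CPM). Summed immune markers were below every control library in 3 of 4 libraries labelled TRF2 MuSC-cKO (1485 to 4737 CPM against 3976 to 5318 CPM), and all 7 had a fold change estimated below 0 (median log2 -0.56) with 0 called. Summed myofiber markers were higher without overlap (242 to 374 CPM against 149 to 235 CPM), with 0 of 5 tested genes called. The part of these lists in the members' values was not tested. All 4 lists of other imprinted and pathway genes held 0 calls by edgeR at 3 DPI, with 5 of their 67 tested genes at an unadjusted p under 0.05, against 9.36% of all genes tested.

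**Figure D2:**
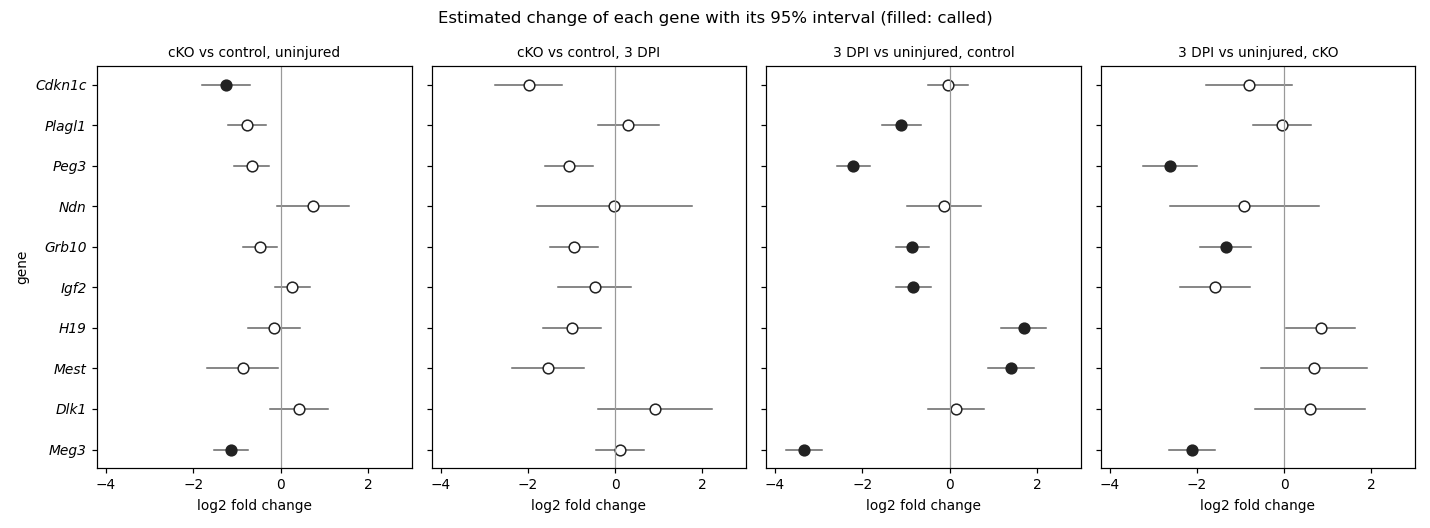
Log2 fold change (horizontal axis) of each gene in 4 comparisons with its 95% interval (lines). Filled points mark called genes, which were 2 of 10 for the uninjured genotype contrast, 0 at 3 DPI, 7 for injury in control MuSCs and 3 for injury in TRF2 MuSC-cKO MuSCs.

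The third comparison set 3 DPI against uninjured muscle in control MuSCs, to follow the members through activation. Of the 10 members, 5 fell and 2 rose, while the background over 15356 genes was 9.46% lower and 10.8% higher. Meg3 changed most of the members, from 1352 to 2146 CPM in uninjured MuSCs to 148 to 232 CPM at 3 DPI (log2 fold change -3.34, SE 0.21, edgeR adjusted p = 5.80e-17). Peg3 went from 1483 to 2166 CPM to 337 to 444 CPM (-2.20, SE 0.19, edgeR adjusted p = 9.26e-13). Both of the 2 most abundant members of the uninjured state thus lost most of their signal. Plagl1 (-1.11), Grb10 (-0.86) and Igf2 (-0.83) fell by less, with adjusted p from 0.000104 to 0.00102 in edgeR.

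H19 and Mest went the other way. H19 was at 139, 123, 38.6 and 81.3 CPM in uninjured and 269, 339, 254 and 389.9 CPM at 3 DPI (log2 fold change 1.70, SE 0.25, edgeR adjusted p = 4.18e-06). Mest was at 34.4, 21.7, 39.8 and 29.6 CPM and 69.8, 100.1, 76.6 and 84.1 CPM (2.64-fold, with an SE of 0.26 on the log2 scale, edgeR adjusted p = 4.03e-05). Every injured library was above every uninjured one for both genes. Cdkn1c showed no call, at 65.2 to 137 CPM in uninjured and 70.8 to 106 CPM at 3 DPI (-0.04, 95% interval -0.51 to 0.42). The sign of that value was positive with library size alone, so no direction can be given. Dlk1 (0.14, 95% interval -0.50 to 0.79) and Ndn (-0.13, 95% interval -0.97 to 0.72) were not called.

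Markers of cell types and of cycling cells moved with injury, and in bulk RNA cell numbers and RNA per cell cannot be told apart. All 7 immune markers rose, from a summed 46.2 to 95.5 CPM to 3976 to 5318 CPM, although the sort excluded CD45+ and CD11b+ cells. All 8 MuSC markers fell, 5 of 7 fibroadipogenic markers rose and 1 fell, and all 6 cycling markers rose. The part of these shifts in the members' changes was not tested.

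**Figure D3:**
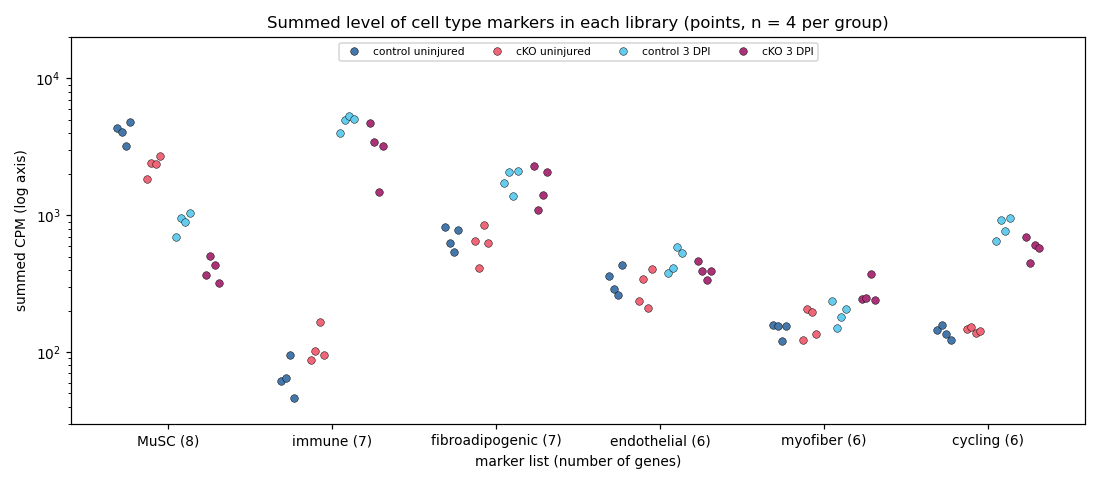
Summed CPM (log axis) of marker lists in each library (points), colored by group. The immune list rose from 165 CPM or less in every uninjured library to 1485 CPM or more in every library at 3 DPI, and the MuSC list fell from 1850 to 4813 CPM to 321 to 1040.4 CPM.

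Over all genes tested for injury in control MuSCs, 9.46% were called lower and 10.8% higher. In the domains of the members, 9 of 23 tested neighbors fell in control MuSCs after injury and 0 rose. The 6 of largest fold were Rian (-2.96), Nctc1 (-2.56), Zim1 (-2.09), next to Peg3, Mirg (-1.60), downstream of Rian, Cobl (-1.51), beside Grb10, and Begain (-1.29), near Dlk1. Of 24 tested imprinted genes elsewhere, 6 fell and 3 rose, among them Calcr (-3.32), Nap1l5 (-2.19), Airn (-1.91), Gatm (2.00), Commd1 (1.87) and Dcn (1.59). Airn is antisense to Igf2r, so their reads are uncertain. Of 12 tested imprint control genes, the maintenance methyltransferase Dnmt1 (1.12) and its partner Uhrf1 (2.33) rose and 0 fell. Of the 11 genes of the IGF2 axis and Cdkn1c partners, Irs1 (-1.73) and Irs2 (-1.34), the insulin receptor substrates, Igf1r (-1.69), the receptor through which IGF2 signals growth, and Cdkn1b (-1.23), a second kinase inhibitor, fell, and Igf2bp2 (1.18), an RNA-binding protein that binds Igf2 transcripts, rose.

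The same contrast in MuSCs labelled TRF2 MuSC-cKO called 3 members lower and 0 higher. The background over 14578 genes was 1.61% lower and 2.43% higher. Libraries of this contrast at 3 DPI are grouped by labels that Terf2 did not follow. Peg3 went from 750.0 to 1312 CPM to 130.3 to 241 CPM (log2 fold change -2.62, SE 0.29, edgeR adjusted p = 6.98e-05). Meg3 went from 726 to 937 CPM to 133 to 247 CPM (-2.10, SE 0.25, edgeR adjusted p = 0.000122). Grb10 went from 205 to 337 CPM to 63.1 to 117 CPM (-1.34, SE 0.27, edgeR adjusted p = 0.00785), and it lost its call in 6 of the 8 fits without 1 library, at adjusted p of 0.0206 to 0.0444. Igf2 lay at the threshold, at 168 to 288 and 32.1 to 153 CPM (-1.59, SE 0.37, edgeR adjusted p = 0.020005), and it was called in 9 of 18 alternatives, among them DESeq2, limma and all 16 libraries in 1 fit. H19 (0.84, adjusted p = 0.267), Mest (0.69, adjusted p = 0.641) and Cdkn1c (-0.80, adjusted p = 0.444) were not called. Without replicate 3 at 3 DPI, 5 members were called, Peg3, Meg3, Grb10 and Igf2 lower and H19 higher. Immune markers rose here too, to 1485 to 4737 CPM from 87.5 to 165 CPM, and 7 of 8 MuSC markers fell. Of the other lists, Zim1 (-2.39), Gnas (-1.59), Cdkn1a (-1.89), Irs1 (-1.76) and Irs2 (-1.31) fell and Dnmt1 (1.77) rose.

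The interaction asked whether the injury effect differed between genotypes, in all 16 libraries. Here too the genotypes at 3 DPI are those of the labels, which Terf2 did not follow. None of the members was called (0.0178% of the 16822 genes tested were called lower), with 2 members and 966 genes at an unadjusted p under 0.05. These were Meg3 (log2 difference 1.34, SE 0.32, edgeR adjusted p = 0.241) and Plagl1 (1.15, SE 0.40, edgeR adjusted p = 0.638). Both were lower in uninjured TRF2 MuSC-cKO MuSCs and overlapped between genotypes at 3 DPI. Meg3 was called in this test by limma's robust fit (adjusted p = 0.0159) and by DESeq2 (adjusted p = 0.0126). For Cdkn1c the difference was -0.66 (95% interval -1.57 to 0.25), so the genotype effects in uninjured MuSCs and at 3 DPI were not shown to differ. In the IGF2 axis and Cdkn1c partners, Cdkn1a was called (-2.40, adjusted p = 0.000944).

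Levels of different genes were compared per length, as TPM, the length-corrected share of a library's transcripts, from the abundance-scaled table. The order at the top depended on the length used, since by CPM per kb of the longest transcript Peg3 (216) came before Meg3 (129) in uninjured control MuSCs, and Meg3 went from rank 4 to rank 8 in control at 3 DPI. By TPM, in uninjured control MuSCs Meg3 was highest at 1352 ± 189 TPM (SD, n = 4), then Peg3 at 652 ± 84.9 TPM and Grb10 at 169 ± 19.1 TPM. Igf2 (132 ± 3.77 TPM), Cdkn1c (117 ± 37.4 TPM) and H19 (98.1 ± 45.5 TPM) came next and did not differ beyond their spread, and neither did H19 and Plagl1 (79.0 ± 20.1 TPM). Mest, Ndn and Dlk1 were lowest, at 29.5 ± 7.80, 26.5 ± 7.19 and 16.5 ± 4.09 TPM, with neighboring ranges that overlapped. In uninjured TRF2 MuSC-cKO MuSCs the order began with Meg3 (659.8 ± 141 TPM) and Peg3 (472 ± 91.7 TPM), whose ranges overlapped, then Igf2 (181 ± 31.4 TPM), Grb10 (141 ± 30.7 TPM) and H19 (103 ± 42.1 TPM), with Cdkn1c at 56.2 ± 8.40 TPM. At 3 DPI H19 was highest, at 320.4 ± 53.6 TPM in control and 179 ± 73.9 TPM in the libraries labelled TRF2 MuSC-cKO, where its range overlapped that of Meg3 (87.0 ± 23.1 TPM). In control MuSCs at 3 DPI the next were Peg3 (142 ± 21.2 TPM), Cdkn1c (113 ± 22.7 TPM), Meg3 (98.4 ± 41.5 TPM) and Grb10 (95.2 ± 24.2 TPM), whose ranges overlapped. Cdkn1c thus ranked 3 of 10 in control at 3 DPI and 8 of 10 in those labelled TRF2 MuSC-cKO. Counted together, the members held a median 0.427% of a library's counts in control uninjured and 0.283% in TRF2 MuSC-cKO uninjured MuSCs. At 3 DPI the median was 0.146% in control and 0.105% in those labelled TRF2 MuSC-cKO. In uninjured MuSCs most of this sum came from Meg3 and Peg3, and H19 and Mest rose with injury in control MuSCs.

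The 2 domain pairs differed in how their balance moved. The ratio of Igf2 to H19 in TPM had a median of 1.31 (0.967 to 3.07) in control and 1.92 (1.26 to 2.61) in TRF2 MuSC-cKO uninjured MuSCs, and of 0.247 (0.121 to 0.349) and 0.249 (0.201 to 0.704) at 3 DPI. The ratio of Dlk1 to Meg3 had a median of 0.0133 (0.00761 to 0.0162) in control and 0.0379 (0.0316 to 0.0493) in TRF2 MuSC-cKO uninjured MuSCs, without overlap, and of 0.215 (0.0847 to 0.298) and 0.257 (0.112 to 1.25) at 3 DPI. The first ratio thus separated the injury states, and the second separated all but the genotypes at 3 DPI. The value of 1.25 belongs to replicate 3.

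**Figure D4:**
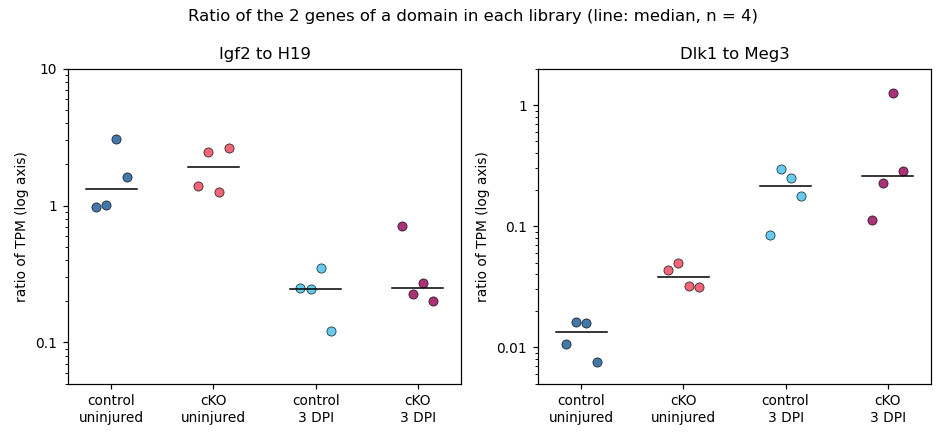
Ratio of TPM of Igf2 to H19 and of Dlk1 to Meg3 (log axes) in each library (points), with the median of each group (line, n = 4). Igf2 to H19 lay at 0.967 or more in uninjured and at 0.704 or less at 3 DPI, and Dlk1 to Meg3 lay at 0.0493 or less in uninjured and at 0.0847 or more at 3 DPI.

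The genes whose log2 CPM was most like that of Cdkn1c over the 16 libraries, among 16822 genes, were Sf3b3 (Pearson r 0.87), Trim28 (0.87), Met (0.86), Rps27a (0.85) and Spast (0.85). Sf3b3 encodes a splicing factor, Trim28 a co-repressor that protects imprints, Met the receptor of hepatocyte growth factor, Rps27a a ubiquitin-ribosomal fusion protein and Spast a microtubule-severing enzyme. The genes least like it were Cnksr1 (-0.85), Plcxd2 (-0.84), Sorbs2 (-0.83), Zan (-0.82) and Zfp831 (-0.82). The libraries share the group structure and differ in depth, so these values are a description. Among the members, Meg3 and Peg3 had the highest r over the 16 libraries (0.91), which was 0.11 once the group means were removed. The strongest correlations after that removal rested on TRF2 MuSC-cKO replicate 3 at 3 DPI. Without it, a choice made after seeing the data, r went from 0.75 to 0.34 for Igf2 and Ndn, from 0.71 to 0.40 for Igf2 and Grb10, from -0.72 to -0.14 for Dlk1 and Ndn, and from -0.72 to -0.36 for Dlk1 and Igf2.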

How the data were processed

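RNA sequencing of MuSCs was analysed in 16 libraries, 4 per group, with groups from the sample labels. The authors trimmed reads (Trim Galore 0.6.7), aligned them with STAR (2.6.1d in the submitters' processing notes) to GRCm38 and quantified them with Salmon 1.5.2. The authors deposited a gene table of raw estimated counts and a second table of estimated counts scaled by abundance. The annotation release and the use of the kit's molecular identifiers were not given in the sources used here.

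Estimated counts were rounded and fitted per comparison on the groups compared with edgeR 4.0.16 (R 4.3.3), after filterByExpr and TMM, with the robust quasi-likelihood test and Benjamini-Hochberg adjustment over all genes tested. CPM used TMM over 16 libraries. TPM was the second table divided by its column sum. Alternatives used limma 3.58.1 and DESeq2 1.42.0. Of 24411 symbols, 95.8% matched GENCODE M21. The procedure was tested on simulated data. The genes named from other lists were those called, at most 6 of largest fold per list and comparison, and the 5 most and least like Cdkn1c. Members and lists were chosen with earlier results of these data known. Totals of 620506 to 1351130 counts limit low genes such as Ndn (0 to 33 counts).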

Additional observations from a re-analysis of the deposited data

How the results depend on the processing

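The number of called members moved with the processing in 4 comparisons and was 6 or 7 in every fit of injury in control MuSCs. In uninjured MuSCs it went from 2 to 4 with DESeq2 and with no filter, to 0 with the abundance-scaled table (adjusted p of 0.0345 for Meg3 and 0.0464 for Cdkn1c) and to 1 with all 16 libraries in 1 fit, and was 1 to 3 without 1 library. At 3 DPI it was 1 (Cdkn1c) with all 16 libraries in 1 fit and 0 to 2 without 1 library. In the interaction it was 1 (Meg3) with limma's robust fit and with DESeq2. For injury in TRF2 MuSC-cKO MuSCs it was 4 in 7 other alternatives (Igf2 added), 2 with the abundance-scaled table (Grb10 lost, adjusted p = 0.0498) and 2 to 5 without 1 library. The cause was not tested. The Terf2 difference was -17.5 CPM with library size alone in uninjured MuSCs (exact permutation p = 0.114), -32.5 to -21.8 CPM there without 1 library, and 1.14 to 22.3 CPM at 3 DPI without 1 library. Over all genes in uninjured MuSCs, TMM gave 370 lower and 82 higher, library size alone 212 and 176, limma's robust fit 142 and 157, all 16 libraries 70 and 12, and with the abundance-scaled values 11 were lower and 6 higher. For injury in control MuSCs, library size alone gave 1066 lower and 1989 higher. It shifted the median over all genes in uninjured MuSCs from 0.06 to 0.24 (log2), and relative to that median Cdkn1c was at -1.31 and Meg3 at -1.18, against -1.31 and -1.19 with TMM.

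The replicate block called 3 members in uninjured MuSCs (Peg3 added, -0.69), 0 at 3 DPI, 7 and 2 for injury in control and TRF2 MuSC-cKO (Grb10 lost, adjusted p = 0.0573), and 0 in the interaction. Correlations between libraries of the same number ran from -0.11 to 0.11, so the numbers were not taken to pair libraries.

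Signs changed only for members that were not called in the comparison. With library size alone, H19 was at 0.047 in uninjured MuSCs, Ndn at 0.050 at 3 DPI, Ndn at 0.025 and Cdkn1c at 0.12 for injury in control, and Plagl1 at 0.098 for injury in TRF2 MuSC-cKO. Meg3 was at -0.33 at 3 DPI with the abundance-scaled table. For injury in control, Cdkn1c was at 0.049 with limma's robust fit and 0.066 with at least 10 counts in every library. For injury in TRF2 MuSC-cKO, Dlk1 was at -0.00027 with limma's robust fit, and Plagl1 at 0.040 with at least 10 counts and 0.012 with all 16 libraries. Without 1 library, H19 ran from -0.49 to 0.053 in uninjured MuSCs. At 3 DPI Dlk1 ran from -0.013 to 1.22, Meg3 from -0.069 to 0.24 and Ndn from -0.68 to 0.38. For injury in control Dlk1 ran from -0.017 to 0.26, Ndn from -0.28 to 0.0047 and Cdkn1c from -0.22 to 0.19. For injury in TRF2 MuSC-cKO Dlk1 ran from -0.27 to 0.91 and Plagl1 from -0.15 to 0.13, and in the interaction Dlk1 ran from -0.45 to 0.87. Ranks by level were the same for 16 of 40 values with CPM per kb in place of TPM, and 4 moved by 2 or more. Without TRF2 MuSC-cKO replicate 3 at 3 DPI, chosen after seeing the data, the correlation of Grb10 and Ndn within groups went from 0.55 to -0.25.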
